A study of Mus musculus with 17 samples.

Results

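The genes described here are the T cell receptor gene segments, the separate V, D, J and C pieces of the alpha, beta, gamma and delta loci from which T cells assemble their antigen receptors. A gene was a member when Gencode vM21 gave it the type TR_V, TR_D, TR_J or TR_C gene and its reads summed to at least 20 over all 17 libraries. Of 226 such annotated genes, 137 were members, among 55450 genes in the count matrix. The alpha locus gave 85 members (42 V, 42 J and 1 C gene), the beta locus 34 (17 V, 2 D, 13 J and 2 C genes), the gamma locus 13 (6 V, 3 J and 4 C genes) and the delta locus 5 (3 V, 1 J and 1 C gene). Of the annotated V genes, 42 of 110 entered for alpha and 17 of 22 for beta.

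RNA was sequenced from peritoneal tumors grown in female BALB/c mice, 8 weeks old, after injection of AB12 cells, a mouse mesothelioma line, into the peritoneum. There were 3 untreated tumors of day 6 (d6), 5 of d10 and 3 of d14, and mice given the anti CTLA-4 antibody clone 9D9 (200 µg per injection into the peritoneum) gave 3 tumors of d10 and 3 of d14. CTLA-4 is an inhibitory receptor of T cells. Each library came from a different mouse and held every cell type of the tumor. The treated d14 tumors had received antibody on d6 and d10, and the injection days of the treated d10 tumors are not given in the sources used here. All mice carried the same cell line, so no group lacked tumor, and no tumor-free tissue was analysed here.

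A T cell joins one V segment, in the beta and delta chains also a D segment, and one J segment by cutting the DNA, and the joined piece is spliced in the RNA to a C (constant) gene. Alpha pairs with beta in conventional T cells, including CD4 and CD8 T cells, and gamma pairs with delta in a smaller lineage common in epithelia and body cavities. The pairs signal only together with the CD3 and zeta chains. The choice of V and J segment differs between T cells, so that an expanded clone shifts the shares of V genes, while the C genes count all cells that use the locus. Gamma genes are also rearranged in many alpha beta T cells, so gamma RNA by itself does not name a gamma delta T cell.

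Some segments are printed here because their likeness or shortness decided what could be counted. Sequences are from the Gencode vM21 transcripts (GRCm38) and run 5′ to 3′. Trgj2 (chr13:19311245-19311304, minus strand) is the J segment next to Tcrg-C2. Trgj1 (chr13:19210343-19210402, plus strand) and Trgj3 (chr13:19257117-19257176, plus strand) lie in the clusters of Tcrg-C1 and Tcrg-C3. Capitals mark the 4 bases of Trgj1 and the 6 of Trgj3 that differ from Trgj2. Over the other bases of the segment the 3 copies are the same.
Trgj2: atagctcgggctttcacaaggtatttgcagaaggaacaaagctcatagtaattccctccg
Trgj1: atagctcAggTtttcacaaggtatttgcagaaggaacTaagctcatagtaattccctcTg
Trgj3: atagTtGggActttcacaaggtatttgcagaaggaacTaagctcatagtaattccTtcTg

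The 2 D beta segments are the shortest members, at 12 bases for Trbd1 (chr6:41533201-41533212, plus strand) and 14 for Trbd2 (chr6:41542163-41542176, plus strand), so every read counted for them extended well past the segment.
Trbd1: gggacagggggc
Trbd2: gggactgggggggc

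The last 60 bases of a V segment encode the end that joins to J or D. They are shown for Trbv1 (chr6:40891229-40891885, plus strand), the V beta gene with the most reads in most tumors, for Trbv19 (chr6:41178375-41179048, plus strand), which had the most on d6, and for Trgv2 (chr13:19336573-19337167, minus strand), the main V gamma gene.
Trbv1: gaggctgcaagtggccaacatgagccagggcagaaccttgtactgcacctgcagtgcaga
Trbv19: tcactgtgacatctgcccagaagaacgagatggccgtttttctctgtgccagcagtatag
Trgv2: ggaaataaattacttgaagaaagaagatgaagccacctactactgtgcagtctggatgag

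The last set belongs to receptors of fixed use. Trav11 joined to Traj18 makes the alpha chain of invariant NKT cells, and Trav1 joined to Traj33 that of MAIT cells. Trav11 (chr14:53519303-53519859, plus strand) and Trav11d (chr14:52824357-52824912, plus strand) are identical over 342 aligned bases, and both are listed at 0 in every library, where only uniquely mapped reads were kept. Traj18 (chr14:54200777-54200842, plus strand) had 71 reads in 14 of 17 libraries and Traj33 (chr14:54185358-54185414, plus strand) 23 reads in 8.
Trav11: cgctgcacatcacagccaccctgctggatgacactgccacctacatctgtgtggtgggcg
Traj18: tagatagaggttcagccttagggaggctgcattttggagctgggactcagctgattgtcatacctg
Traj33: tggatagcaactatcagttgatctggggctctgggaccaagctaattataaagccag

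The libraries held 46371577 to 96759833 counts (median 72413343), of which the members took 1828 to 11884 (median 6947). Members summed to 117866 counts, with 89545 on the 8 C genes, 23893 on V, 4086 on J and 342 on D genes. The C genes therefore carried most of the information and the J and D genes little. The threshold of 20 reads separated neighbours that hardly differed: Traj47 had 17, Trav14-2, Trav9d-1 and Trdv5 18, and Trav7-5 and Traj45 19, whereas Traj37 had 21, Trgj1 22, Trav5-4, Traj33 and Traj41 23, and Traj52 24. Of the 89 annotated genes left out, 41 had no read at all.

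How well a segment could be counted depended on its copies in the genome. All 17 V beta members had every one of their 75-base windows unique among the annotated transcripts. The median over V alpha members was 81.3%, and 38 of the 68 V alpha genes left out had no unique window. Among C genes, the unique share was 100% for Trac and Tcrg-C4, 95.6% for Trdc, 90.8% for Tcrg-C2, 82.4% for Tcrg-C1, 78.0% for Tcrg-C3, 65.4% for Trbc1 and 62.3% for Trbc2. Trbc1 and Trbc2 are 99% identical over their first 400 bases, and Tcrg-C1 and Tcrg-C3 are 97.1% and 96.9% identical to Tcrg-C2 there, so reads of these families could be lost or split between copies. Trdc overlaps Trdv5 and Gm43434, Trdv4 and Trdj1 overlap Gm30275, Tcrg-V4, Tcrg-V6 and Tcrg-V7 overlap Gm31887, and Trdv2-2 overlaps Gm43647, so their counts are uncertain. The reference is the C57BL/6J genome while the mice were BALB/c, and the effect of that on single V genes was not tested.

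All 4 loci had RNA in every tumor, and their summed levels moved differently over time. Levels are given as normalized CPM, which are the counts of a library divided by its TMM-adjusted total over the 17 libraries, and the sums over a locus are descriptions without a test. Alpha segments summed to 12.6 ± 1.57 CPM on d6 (SD, n = 3), 49.9 ± 6.33 on d10 (n = 5) and 25.5 ± 9.42 on d14 (n = 3). Beta segments summed to 22.8 ± 3.10, 63.7 ± 8.08 and 32.6 ± 7.90 CPM at the same times. The d10 mean was 3.95 times the d6 mean for alpha and 2.80 times for beta, and no d10 tumor overlapped with any d6 or d14 tumor in either sum. In bulk tissue, more T cells and more receptor RNA per T cell cannot be told apart.

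The gamma sum followed the alpha and beta sums from d6 to d10, and the delta sum did not. The delta sum came mostly from its constant gene Trdc, at means of 2.06 CPM on d6 and 1.57 on d10. The delta V genes alone went the other way, from 0.111 to 0.178 CPM, with overlapping tumors. Gamma summed to 3.97 ± 0.407 CPM on d6, 9.49 ± 1.90 on d10 and 3.49 ± 1.09 on d14, so that d14 overlapped with d6. Delta summed to 2.20 ± 0.443 CPM on d6 and 1.78 ± 0.524 on d10, with overlapping tumors, and then to 0.478 ± 0.0673 on d14. Every d14 tumor lay below every other untreated tumor in the delta sum. The d14 mean of delta was 0.218 times the d6 mean, whereas that of alpha was 2.02 times its d6 mean.

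Treated tumors on d14 had higher sums than untreated tumors of that day at all 4 loci, without overlap. The treated d14 sums were 46.0 ± 4.59 CPM for alpha, 55.3 ± 4.56 for beta, 7.83 ± 0.824 for gamma and 1.17 ± 0.149 for delta (n = 3). The ratio of the means to untreated d14 was 1.81 for alpha, 1.70 for beta, 2.24 for gamma and 2.45 for delta. On d10 the treated sums were 40.5 ± 2.06, 55.7 ± 1.58, 7.66 ± 0.256 and 0.973 ± 0.202 CPM (n = 3). The ratios on d10 lay below 1, at 0.812, 0.874, 0.807 and 0.548. Only the gamma and delta sums did not overlap between the treatments on that day. For the delta V genes alone the d10 ratio was 1.04, with overlap.

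**Figure D1:**
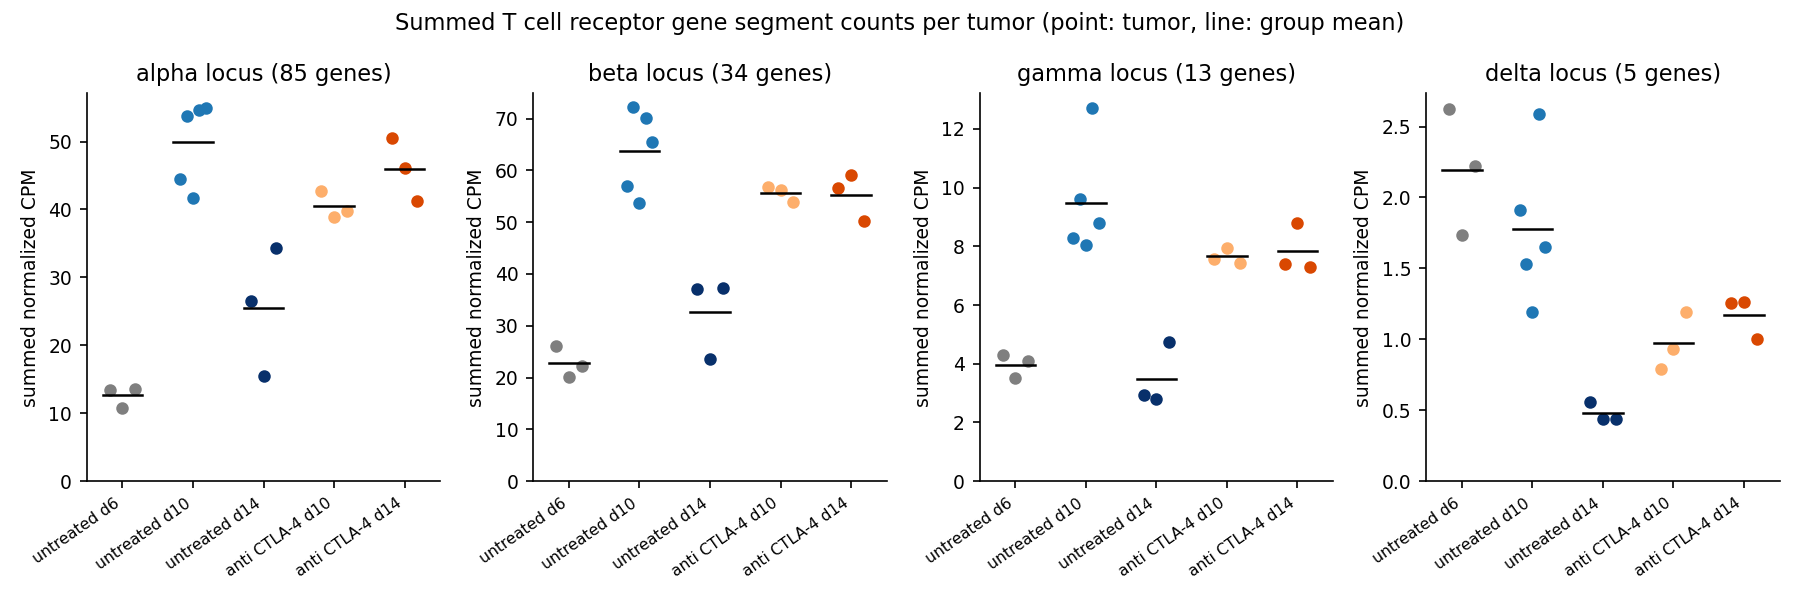
Summed normalized CPM of the members of each locus (vertical axis, from 0) in each tumor, by group, with a point per tumor and a line at the group mean. Alpha and beta were highest in untreated d10 tumors, at means of 49.9 and 63.7 CPM, whereas delta was highest on d6, at a mean of 2.20 CPM.

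The first comparison, untreated d10 against d6, asks how receptor RNA changed from the early to the intermediate phase of growth. Trac, Trbc1 and Trbc2, the constant genes of alpha and beta, all rose, as did Tcrg-C2 and Trgv2 of the gamma locus, while Trdc, the constant gene of delta, Tcrg-C1 and Tcrg-C4 did not pass the test. Calls are from edgeR's quasi-likelihood test over all genes with Benjamini-Hochberg adjustment, at an adjusted p under 0.05 and a fold change over 2. Of the 137 members, 29 had enough counts to be tested, and 17 of those rose and 0 fell, against 4.79% of all 16866 genes tested that rose and 2.66% that fell. DESeq2 called 20 members higher and 0 lower, against 5.18% and 3.04% of genes, and 22 members had an unadjusted p under 0.05 in edgeR. The median log2 fold change was 1.92 over the 29 members and 0.03 over all genes. A segment present only on d10 passes the count filter more readily than an absent one, so these counts describe the members that could be tested. Without d6 replicate 1, 2 or 3 the count fell from 17 to 10, 10 and 11.

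Trac (chr14:54220521-54224206, plus strand) stood at 12, 9.48 and 12.2 CPM in the 3 d6 tumors and at 39.3, 47.5, 36.2, 47.2 and 44.1 CPM in the 5 d10 tumors. The days were far apart, with no overlap. The log2 fold change was 1.92 (SE 0.13, adjusted p = 6.8e-05). Trbc1 (chr6:41538218-41539881, plus strand) rose from 5.18, 4.31 and 5.16 CPM to 9.63, 14.4, 9.59, 15.6 and 12.9 CPM, by 1.34 on the log2 scale (SE 0.19, adjusted p = 0.0018). Trbc2 (chr6:41546730-41548352, plus strand) rose from 17, 11.5 and 12.7 CPM to 34.7, 41.1, 29.5, 31.0 and 29.0 CPM, by 1.26 (SE 0.17, adjusted p = 0.0014). Neither gene overlapped between the days. Leaving out any single library kept the calls of Trac, Trbc1 and Trbc2. Reads of Trac per 100 reads of both beta constant genes went from a mean of 60.9 on d6 to 94.7 on d10.

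Among the 3 gamma clusters whose constant gene could be tested, 1 rose, that of Tcrg-C2. Tcrg-C2 (chr13:19304649-19307551, minus strand) had 1.19, 0.731 and 1.17 CPM on d6 and 4.69, 5.37, 4.29, 8.33 and 5.44 on d10, a log2 fold change of 2.44 (SE 0.28, adjusted p = 0.00064). Trgv2, the V gene on the same strand beside it, had 0.265, 0.277 and 0.263 CPM on d6 and 1.42, 1.39, 1.27, 2.06 and 1.48 on d10 (log2 fold change 2.49, SE 0.26, adjusted p = 0.00045). Trgj2, the J segment between them, named here after its values were seen, had 0, 1 and 2 reads on d6 and 11, 15, 10, 43 and 17 on d10, and also passed the test. For all 3 genes of this cluster the days did not overlap, and replicate 4 of d10 was the highest.

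The other gamma constant genes and Trdc gave overlapping values. Tcrg-C4 (chr13:19344558-19352756, plus strand) had 2.01, 1.66 and 1.74 CPM on d6 and 1.18, 2.04, 1.39, 0.482 and 0.990 on d10 (log2 fold change -0.57, SE 0.39, adjusted p = 0.34). Tcrg-C1 (chr13:19214103-19217024, plus strand) had 0.551, 0.593 and 0.607 CPM on d6 and 0.615, 0.218, 0.418, 0.832 and 0.417 on d10 (log2 fold change -0.22, SE 0.39, adjusted p = 0.72). Trdc (chr14:54142851-54148868, plus strand) had 2.45, 1.58 and 2.14 CPM on d6 and 1.79, 1.41, 0.931, 2.31 and 1.41 on d10 (log2 fold change -0.40, SE 0.29, adjusted p = 0.38). In each of these 3 genes the d10 tumors spread over a wider range than the d6 tumors. With d10 replicates 4 and 5 alone the change of Tcrg-C4 was -1.35 and passed the test (adjusted p = 0.016), and with replicates 1 to 3 alone it was -0.21 (adjusted p = 0.56). Tcrg-C3 (chr13:19260884-19263528, plus strand) had 48 reads over all libraries, none of them on d6, and was too low to test.

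**Figure D2:**
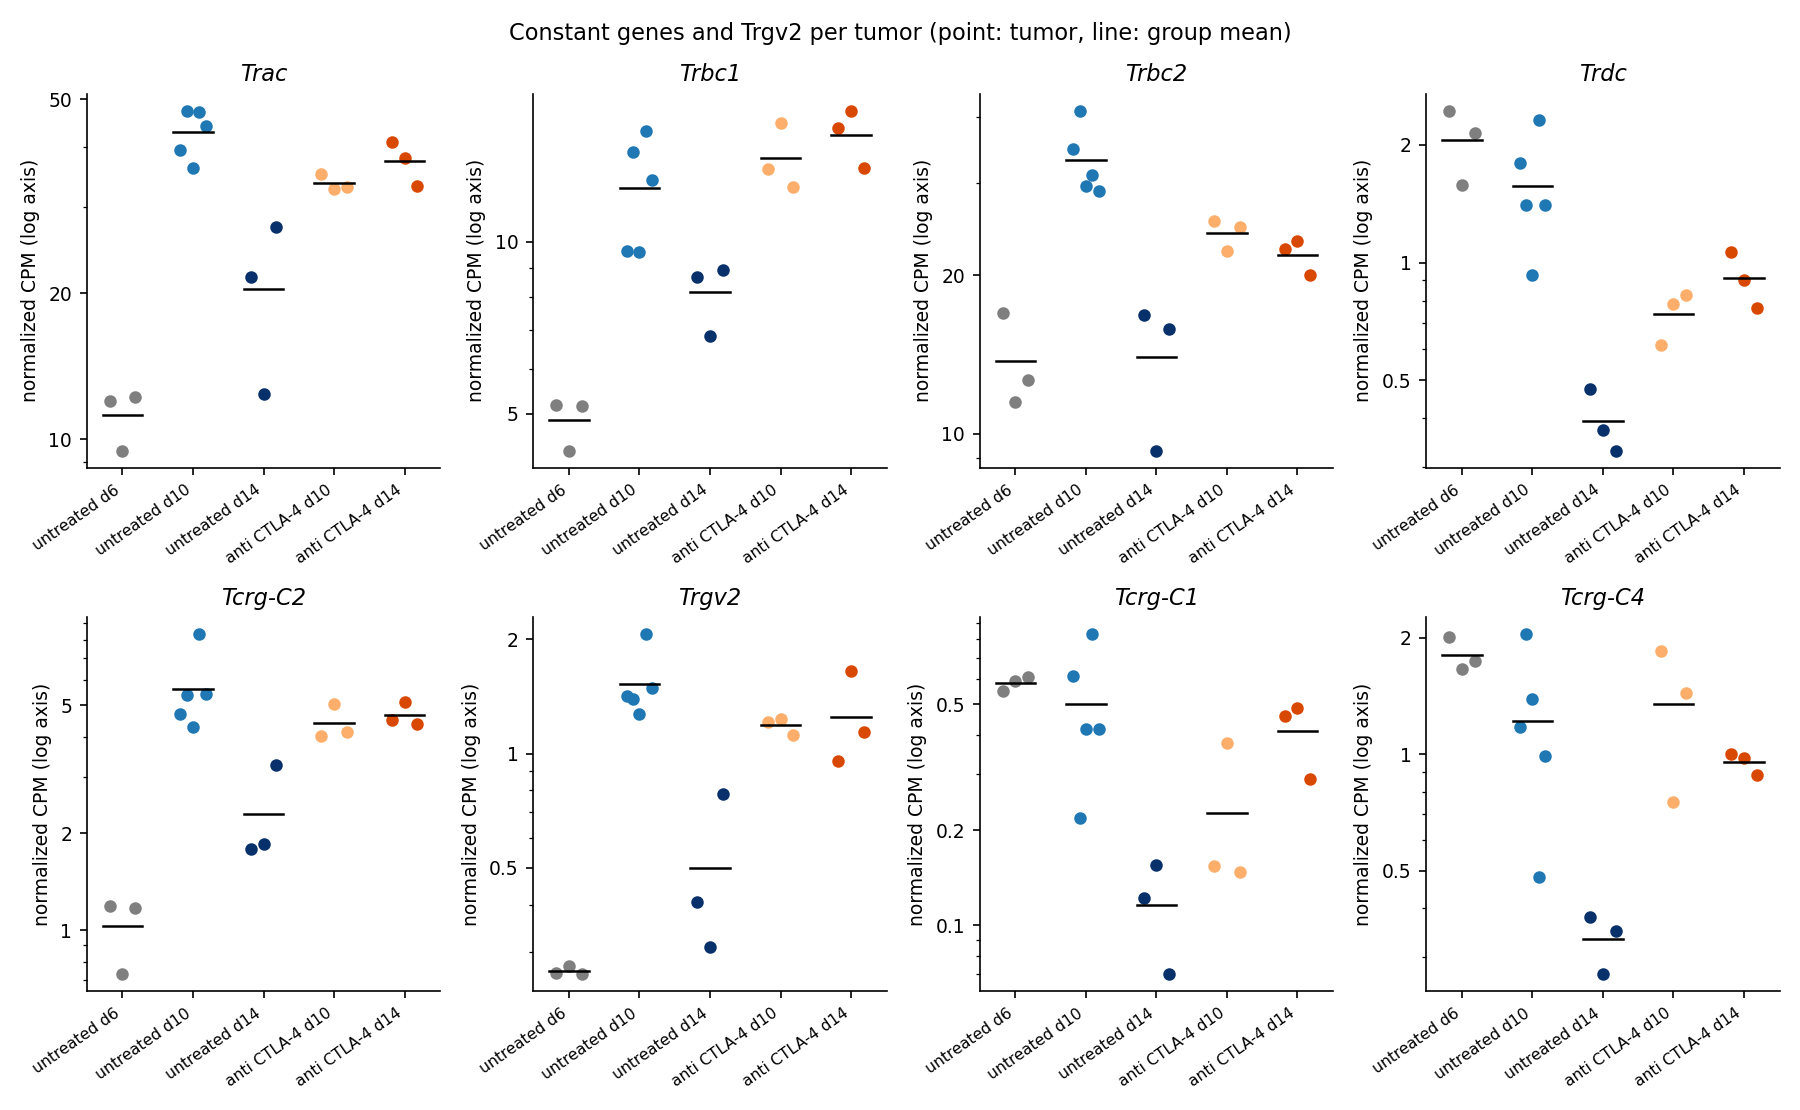
Normalized CPM (vertical axis, log scale) of 7 constant genes and of Trgv2 in each tumor, by group, with a point per tumor and a line at the group mean. Trac, Tcrg-C2 and Trgv2 were lowest in the 3 d6 tumors, whereas among untreated tumors Trdc, Tcrg-C1 and Tcrg-C4 were lowest in the 3 d14 tumors.

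The composition of the gamma locus therefore differed between the days. Tcrg-C4 held 52.9% ± 3.16 of the gamma constant reads on d6 and 17.2% ± 8.20 on d10, and Tcrg-C2 held 29.9% ± 4.71 and 74.9% ± 7.06. The same order was seen per length: on d6 Tcrg-C4 had 1.69 to 2.04 CPM per kilobase of exon and Tcrg-C2 0.800 to 1.30, while on d10 Tcrg-C2 had 4.70 to 9.12 and Tcrg-C4 0.490 to 2.08. On d14 Tcrg-C2 held 82.2% ± 5.23, and in treated tumors 73.1% ± 7.59 on d10 and 77% ± 1.58 on d14. Of the V gamma reads, Trgv2 held 54.2% ± 3.61 on d6, where 23 to 25 reads were counted per tumor, and between 87.3% and 89.1% on average in the other 4 groups. Trdc per 100 reads of Trac went from 18.2 ± 1.94 on d6 to 3.64 ± 1.03 on d10 and 2.14 ± 0.904 on d14, and Tcrg-C2 per 100 reads of Trac went from 9.07 to 13.0 and 11.8. These shares are descriptions and were not tested.

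The chains that signal with the receptor rose with it. All 4 of Cd3e, Cd3g, Cd3d and Cd247 (the zeta chain) rose from d6 to d10, by 2.10 (adjusted p = 1.5e-05), 2.30 (adjusted p = 1.9e-05), 2.03 (adjusted p = 0.00038) and 1.42 (adjusted p = 0.00025) on the log2 scale. The coreceptors parted. Cd8a and Cd8b1, which form CD8, rose by 3.19 (adjusted p = 7.6e-06) and 3.25 (adjusted p = 1.6e-05), and Cd4 gave -0.39 (adjusted p = 0.17). Reads of Cd8b1 per 100 reads of Cd4 were 47.0 to 50 on d6 and 544 to 808.9 on d10, without overlap. Reads of Trac, Trbc1 and Trbc2 per 100 reads of the 4 CD3 and zeta genes were 80.2 to 97.7 on d6, 59.9 to 70.6 on d10 and 52.9 to 61.7 in the other groups.

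The second comparison, untreated d14 against d10, concerns the advanced phase. The constant genes of all 4 loci fell except Trbc1 among those tested, and so did Trgv2. Of the V beta and V alpha members tested, 0 of 16 and 0 of 15 passed in either direction. Their log2 fold changes were negative in 16 V beta and 11 V alpha members, with medians of -1.28 and -0.72. The missing calls therefore do not show unchanged levels of V genes. Of 44 members tested, 7 fell and 0 rose, against 3.45% of 17659 genes that fell and 3.78% that rose. The median log2 fold change was -1.08 over the members and -0.04 over all genes, and 17 members had an unadjusted p under 0.05 in edgeR. DESeq2 called 11 members lower and 0 higher, against 4.43% and 4.21% of genes. The count rested on the d14 tumors: 3 members were called without d14 replicate 1 and 2 without d14 replicate 2, and 6 to 8 without any other library. The d10 tumors serve in both this comparison and the one before.

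Trac fell to 21.6, 12.4 and 27.3 CPM on d14 (log2 fold change -1.06, SE 0.22, adjusted p = 0.013) and Trbc2 to 16.8, 9.29 and 15.8 CPM (-1.23, SE 0.21, adjusted p = 0.0074). Trbc1 stood at 8.69, 6.86 and 8.94 CPM (-0.59, SE 0.19, adjusted p = 0.055). In all 3 genes replicate 2 was the lowest d14 tumor and none overlapped with d10. Without it the change of Trac was -0.81 and no longer passed, and with library sizes not adjusted by TMM it was -0.99, just under the fold threshold. Trbc1 made up 26.5% ± 2.84 of the beta constant reads on d6, 27.3% ± 4.78 on d10 and 37.6% ± 4.37 on d14. This share did not follow the day alone. Among untreated d10 tumors it was 21.71% to 25.94% in replicates 1 to 3, and 33.51% and 30.76% in replicates 4 and 5. In treated tumors it was 33.57% to 42.05% on d10 and 40.23% to 42.27% on d14. The part of read length in this share was not tested.

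Trdc, Tcrg-C1 and Tcrg-C4, which had not passed the test between d6 and d10, fell below both earlier days. Trdc had 0.475, 0.374 and 0.331 CPM on d14, a change from d10 of -1.99 (SE 0.33, adjusted p = 0.0075). Tcrg-C4 had 0.380, 0.271 and 0.351 CPM (-1.85, SE 0.45, adjusted p = 0.021) and Tcrg-C1 0.122, 0.155 and 0.0701 CPM (-2.11, SE 0.50, adjusted p = 0.02). No d14 tumor overlapped with any d6 or d10 tumor in these genes. The calls of Tcrg-C1 and Tcrg-C4 did not hold without any 1 of the 3 d14 tumors, and that of Tcrg-C4 did not hold with d10 replicates 4 and 5 alone (-1.10, adjusted p = 0.079). Tcrg-C2, at 1.79, 1.86 and 3.27 CPM (-1.27, SE 0.28, adjusted p = 0.016), and Trgv2, at 0.407, 0.309 and 0.782 CPM (-1.59, SE 0.34, adjusted p = 0.014), lost their calls without d14 replicate 1 or 2.

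Against d6, the d14 tumors showed both directions. Of 19 members tested, 5 rose and 3 fell, against 10.2% and 8.81% of 17172 genes (in DESeq2 also 5 and 3, against 9.39% and 8.30%), and the medians were 0.84 over the members and 0.01 over all genes. The members that fell were Trdc (-2.39, SE 0.28, adjusted p = 0.00023), Tcrg-C4 (-2.42, SE 0.26, adjusted p = 0.00015) and Tcrg-C1 (-2.34, SE 0.37, adjusted p = 0.00094), and their calls held without any single library. Those that rose were Tcrg-C2 (1.16, SE 0.32, adjusted p = 0.014), Trav16d-dv11 (2.13, SE 0.56, adjusted p = 0.012), Trbv1, Trbv14 and Trbv19. Tcrg-C2 lost its call without d6 replicate 2 or d14 replicate 3, and Trav16d-dv11 stood at 2.90 without d6 replicate 1. Trac was 0.86 higher on the log2 scale (SE 0.25, adjusted p = 0.019), under the fold threshold, and passed it without d14 replicate 2 (1.12). Trbc2 gave 0.03 (SE 0.23, adjusted p = 0.93). Without d14 replicate 2, 17 members were called.

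**Figure D3:**
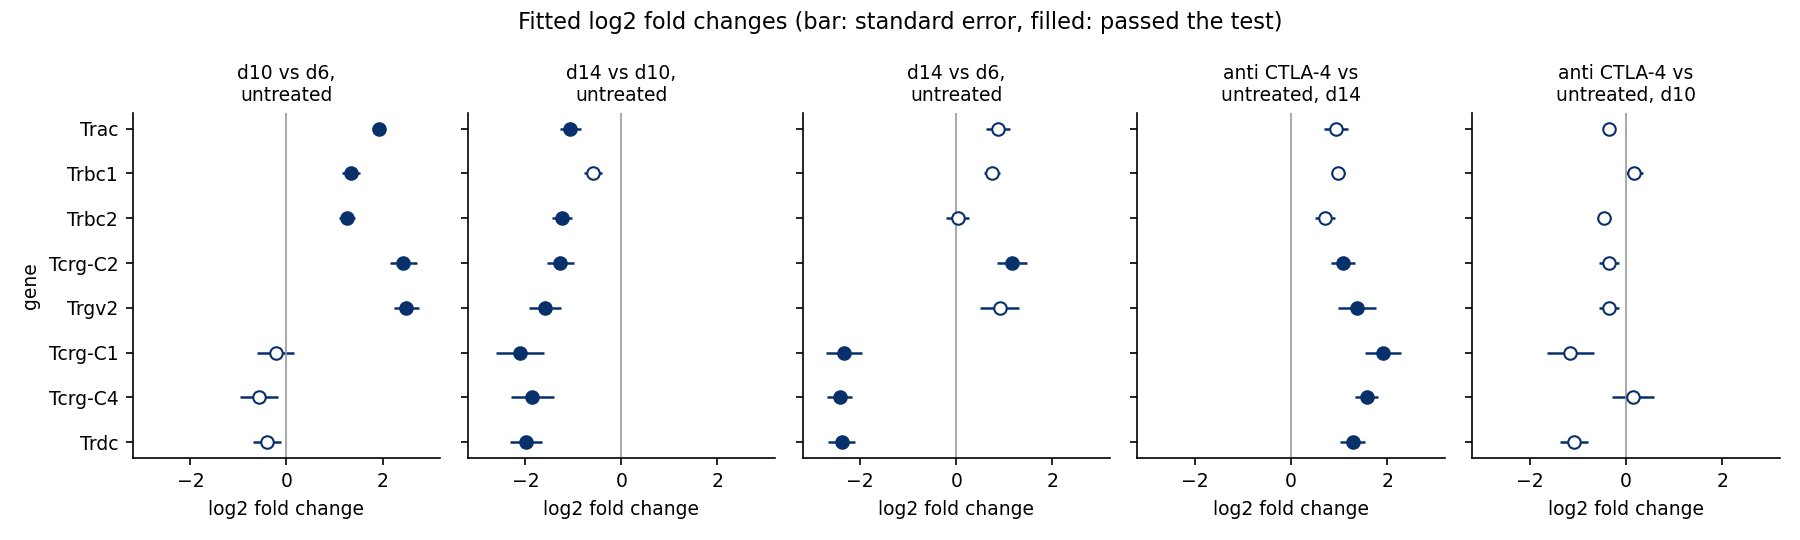
Fitted log2 fold changes (horizontal axis) of 7 constant genes and Trgv2 in 5 comparisons, with bars for the standard error and filled points for genes past the test. Trdc, Tcrg-C1 and Tcrg-C4 lie near or left of 0 in every comparison among untreated tumors, at -0.57 to -0.22 for d10 against d6, while Trac, Tcrg-C2 and Trgv2 lie at 1.92 to 2.49 there.

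V genes show which segments the receptors of a tumor used. From d6 to d10, 10 of the 14 V beta members tested rose and 0 fell, against 4.79% and 2.66% of all genes tested. The count filter, and the ratio of V to C reads given below, bear on this count. Trbv1 changed the most of the V beta members. It had 0.309, 0.296 and 0.162 CPM on d6, 2.27, 2.33, 2.91, 4.88 and 5.23 on d10 and 3.06, 1.98 and 3.69 on d14. The log2 fold change to d6 was 3.76 on d10 (SE 0.42, adjusted p = 0.0006) and 3.51 on d14 (SE 0.35, adjusted p = 0.00011), while d14 against d10 gave -0.26 (SE 0.34, adjusted p = 0.6). Each d10 and d14 tumor exceeded each d6 tumor.

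Trbv19 had 0.617, 0.652 and 0.647 CPM on d6, 2, 2.65, 1.27, 2.13 and 1.58 on d10 and 1.95, 1.58 and 1.12 on d14. It rose by 1.58 to d10 (SE 0.28, adjusted p = 0.0049) and by 1.28 from d6 to d14 (SE 0.28, adjusted p = 0.0047), with no overlap with d6. Trbv14 rose by 2.64 to d10 (SE 0.66, adjusted p = 0.023) and by 1.92 from d6 to d14 (SE 0.71, adjusted p = 0.047), but its d10 values ran from 0.222 to 1.54 CPM, and both calls were lost without any 1 of the 3 d6 tumors. It thus varied more between tumors of 1 day than Trbv19 did. Trav16d-dv11, from 0.132, 0.0198 and 0.0607 CPM on d6 to 0.290, 0.468, 0.551, 0.181 and 0.433 on d10, was the single V alpha member of the 4 tested that passed (log2 fold change 2.42, SE 0.60, adjusted p = 0.023), and it lost its call without d6 replicate 2 or 3 and stood at 3.19 without d6 replicate 1.

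The number of V reads relative to C reads was not the same in all libraries, which bears on any V gene compared with d6. V beta reads per 100 beta constant reads were 15.5 to 23.5 on d6, 25.7, 27.8 and 33.0 in d10 replicates 1 to 3, 47.3 and 53.5 in d10 replicates 4 and 5, 38.1 to 44.9 on d14, and 37.5 to 42.4 in treated tumors. On V genes alone the beta sum was 2.23 higher on d10 than on d6 on the log2 scale, and on constant genes alone 1.29 higher. With d10 replicates 1 to 3 alone Trbv1 rose by 3.30, and with replicates 4 and 5 alone by 4.25. For alpha the ratio was 9.42 to 11 on d6, 9.86 to 12.1 in 4 of the d10 tumors, 20.6 in d10 replicate 5, and 14.7 to 19.6 in the other groups. Libraries were read at 75 or 100 bases, which library at which length is not given in the sources used here, and its part in these ratios was not tested. Shares among V genes of 1 locus do not contain this ratio. Whether read length changed the reads of single V genes unequally, and so their shares, was not tested.

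Trbv1 held 7.15% ± 2.35 of V beta reads on d6, 20.6% ± 3.33 on d10 and 32.0% ± 1.28 on d14. The highest d6 tumor was at 8.97%, the d10 tumors ran from 15.1% to 23.3% and the d14 tumors from 30.7% to 33.2%, so the 3 days did not overlap. In d14 replicate 3, 368 of 1109 V beta reads were Trbv1 (33.2%, 95% Wilson interval 30.5 to 36.0). Such intervals cover counting error only. In treated tumors Trbv1 held 25.5% ± 4.68 on d10 and 27.6% ± 2.55 on d14, and the treated d14 tumors (25.3% to 30.4%) lay just below the untreated ones of that day.

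Trbv1 had the most V beta reads in 13 of 17 tumors and Trbv19 in the other 4, which were the 3 d6 tumors and d10 replicate 2. Per length of exon the leader was the same in 12 tumors, and in the d6 tumors it was Trbv13-2 rather than Trbv19. Trbv13-2 is named after its values were seen. Trbv19 held 17.8% ± 0.237 of V beta reads on d6, 12.3% ± 4.80 on d10 and 18.5% ± 7.90 on d14. The spread between tumors was thus wide for Trbv19 at the later times and narrow for Trbv1 on d14.

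**Figure D4:**
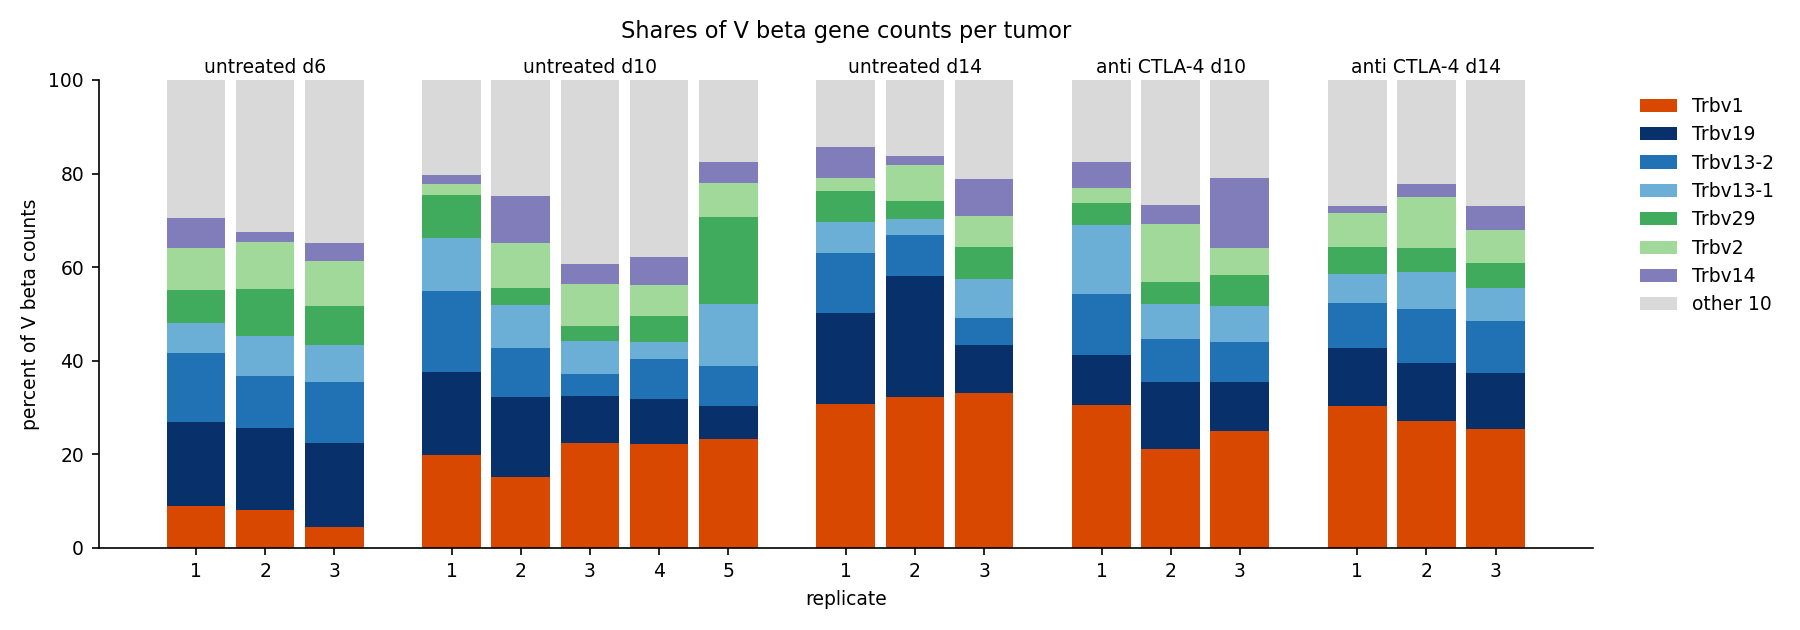
Percent of V beta reads (vertical axis, 0 to 100) held by 7 V beta genes and by the other 10 together in each of the 17 tumors, grouped by day and treatment. The lowest block, Trbv1, grows from a mean of 7.15% on d6 to 32.0% on untreated d14.

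V beta use was most even on d6 and least even on untreated d14. The effective number of V genes, the number of equally used genes that would give the same Shannon entropy, was 12.2 ± 0.376 on d6, 10.6 ± 1.31 on d10 and 8.14 ± 0.925 on d14, with each tumor thinned to 156 V beta reads. Tumors of d6 (11.7 to 12.4) and d14 (7.38 to 9.17) did not overlap, and d10 (9.00 to 12.3) overlapped with both. Treated tumors had 9.62 ± 0.755 on d10 and 10.0 ± 0.871 on d14, and the lowest treated d14 tumor (9.26) lay just above the highest untreated one (9.17). Without thinning these groups overlapped, with 9.61 in the lowest treated and 9.64 in the highest untreated d14 tumor. For alpha, thinned to 53 reads, the values were 18.9 ± 1.41, 16.9 ± 1.19 and 15.6 ± 2.88 on d6, d10 and d14, and 18.3 ± 1.76 and 17.6 ± 1.86 in treated tumors on d10 and d14. The alpha values overlapped between d6 and each other group, and 53 reads limit their precision. A V gene holds many clones, so these numbers do not measure clones.

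**Figure D5:**
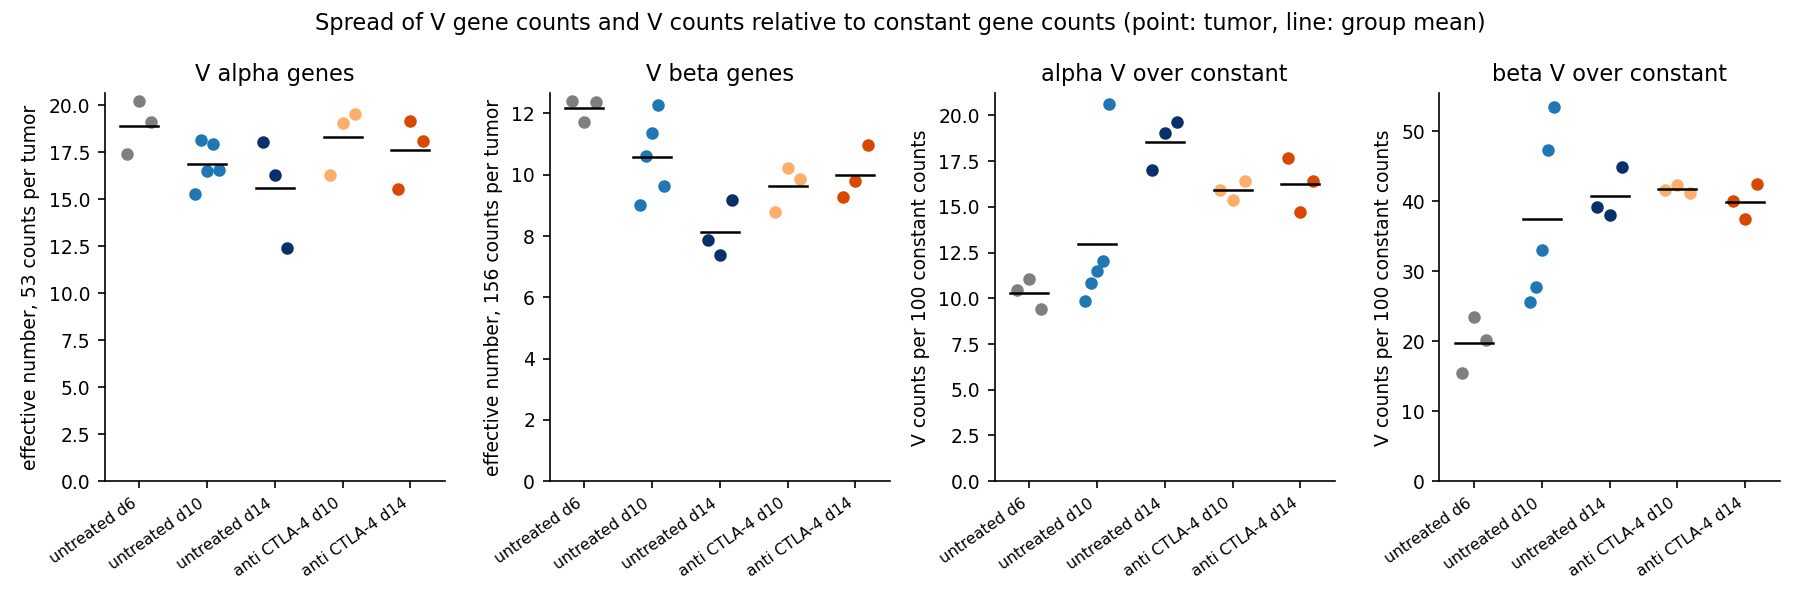
Effective number of V alpha and V beta genes after thinning (left pair, vertical axes from 0) and V reads per 100 constant reads (right pair) in each tumor, by group, with a point per tumor and a line at the group mean. The beta spread falls from a mean of 12.2 on d6 to 8.14 on untreated d14, and the beta ratio is lowest on d6, at 15.5 to 23.5.

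V alpha use differed from tumor to tumor. Trav8n-2 led in 4 tumors, Trav16d-dv11 alone in 3, Trav3-3 in the 3 d6 tumors, Trav8d-2 in 2, and Trav12-3, Trav14d-3-dv8 and Trav4-2 in 1 each. In the other 2 tumors Trav16d-dv11 shared the lead, with Trav17 at 30 reads each in untreated d10 replicate 2 and with Trav4-3 at 31 reads each in treated d10 replicate 2, and Trav17 and Trav4-3 are named after their values were seen. The lead was largest in d14 replicate 3, where Trav8d-2 held 127 of 534 V alpha reads (23.8%, Wilson interval 20.4 to 27.6) against 1.64% and 2.21% in the other untreated d14 tumors. In d10 replicate 1 Trav4-2 held 49 of 227 reads (21.6%, interval 16.7 to 27.4). On d6 only 53 to 57 V alpha reads were counted per tumor, so Trav3-3 led there with 7 to 9 reads. No V alpha gene led in every tumor of d10 or of d14.

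J and D reads were few, and J reads per constant read were higher on d14 than on d10. Alpha J reads per 100 Trac reads were 1.65 to 2.92 on d6, 2.57 to 3.75 on d10, and 5.98 to 6.56 on d14, and beta J reads per 100 beta constant reads were 2.19 to 3.52, 1.46 to 3.11, and 4.86 to 6.15. Treated d14 tumors had 6.02 to 7.89 for alpha and 6.50 to 8.32 for beta, so that both d14 groups lay above both d10 groups, with treated d10 at 3.59 to 5.66 and 2.93 to 4.44. At both loci the untreated values of d6 and d10 overlapped. No D or beta J gene among the few tested passed between untreated days. Trbd1 had 3, 5 and 3 reads on d6 and 22, 14, 20, 10 and 11 on d10 (log2 fold change 1.70, adjusted p = 0.06). No alpha J gene had enough reads to be tested between d6 and d10.

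Anti CTLA-4 was compared with no treatment on d14, to ask how the antibody given during growth changed receptor RNA in the advanced phase. All constant genes of the gamma and delta loci that could be tested rose, while Trac, Trbc1 and Trbc2 were higher in every treated tumor than in every untreated one but stayed under the fold threshold. Of 52 members tested, 19 rose and 0 fell, against 9.07% of 18062 genes that rose and 2.40% that fell. The median log2 fold change was 1.07 over the members and -0.00 over all genes, 30 members had an unadjusted p under 0.05 in edgeR, and DESeq2 called 17 higher and 0 lower, against 8.66% and 2.16% of genes. By locus, 4 of 5 gamma members tested rose, 1 of 1 delta, 6 of 17 V alpha, 3 of 15 V beta and 5 of 9 J beta. The count fell to 12 and 8 without untreated d14 replicate 1 or 2, and to 7 and 8 without treated d14 replicate 1 or 2. The untreated d14 tumors are the same as in the comparisons between days.

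Trdc had 1.06, 0.905 and 0.765 CPM in treated d14 tumors against 0.475, 0.374 and 0.331 in untreated ones (log2 fold change 1.28, SE 0.26, adjusted p = 0.011). Tcrg-C4 had 1, 0.979 and 0.883 CPM (1.58, SE 0.24, adjusted p = 0.0059) and Tcrg-C1 0.458, 0.484 and 0.291 CPM (1.91, SE 0.38, adjusted p = 0.011). The groups did not overlap in these 3 genes, and their calls held without any single library. Tcrg-C2 had 4.51, 5.13 and 4.38 CPM (1.08, SE 0.26, adjusted p = 0.018) and Trgv2 0.955, 1.65 and 1.14 CPM (1.37, SE 0.39, adjusted p = 0.031). Both lay above every untreated d14 tumor, and both calls were lost without untreated d14 replicate 1 or 2 or treated d14 replicate 1 or 2, and that of Trgv2 also without treated replicate 3.

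Trac had 40.8, 37.9 and 33.2 CPM in treated d14 tumors against 21.6, 12.4 and 27.3 (log2 fold change 0.93, SE 0.25, adjusted p = 0.028). Trbc1 had 15.8, 17 and 13.5 CPM (0.98, SE 0.15, adjusted p = 0.0058) and Trbc2 22.4, 23.2 and 20.01 CPM (0.71, SE 0.21, adjusted p = 0.036). These adjusted p-values lay under 0.05 while the fold changes lay under 2. Trac passed both thresholds without untreated d14 replicate 3 (1.23) or treated d14 replicate 3 (1.05), and Trbc1 without untreated d14 replicate 1 (1.03) or 3 (1.09) or treated d14 replicate 3 (1.11). Among coreceptors Cd4 rose by 1.5 (adjusted p = 0.0084) and Cd8b1 by 1.09 (adjusted p = 0.013), and Cd8a gave 0.95 (adjusted p = 0.014). Reads of Cd8b1 per 100 reads of Cd4 were 355 to 421 in treated and 483 to 565 in untreated d14 tumors.

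Among V beta genes, 3 of the 15 tested rose with treatment on d14, against 9.07% of all genes tested. The leading Trbv1 and Trbv19 did not pass the test. Trbv17 had 0.0271, 0.245 and 0.0601 CPM in untreated and 1.49, 0.695 and 0.657 in treated d14 tumors (log2 fold change 3.17, SE 0.66, adjusted p = 0.012). Trbv2 had 0.271, 0.464 and 0.742 CPM in untreated and 1.09, 1.63 and 1.01 in treated tumors (1.39, SE 0.38, adjusted p = 0.028). The third was Trbv13-2 (1.03, SE 0.33, adjusted p = 0.047). Trbv1 gave 0.56 (SE 0.25, adjusted p = 0.11) and Trbv19 0.29 (SE 0.24, adjusted p = 0.37), with overlapping groups. Among V alpha genes Trav8n-2, at 0.176, 0.309 and 0.120 against 1.32, 0.505 and 0.6249 CPM, rose by 2.10 (SE 0.48, adjusted p = 0.017), and Trav16d-dv11 by 1.06 (SE 0.28, adjusted p = 0.024) and Trav3-3 by 1.43 (SE 0.44, adjusted p = 0.04). The call of Trbv17 held without any single library, but its untreated values rest on 2, 19 and 6 reads, and its change ran from 2.71 without treated replicate 1 to 4.39 without untreated replicate 2. Trbv2 lost its call without untreated replicate 1 or 2 or treated replicate 1 or 2, Trav8n-2 without untreated or treated replicate 1, and Trav16d-dv11 and Trav3-3 each without any of 5 libraries.

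On d10 anti CTLA-4 changed no member past the test. Of 50 members tested, edgeR called 0, with 7 at an unadjusted p under 0.05, and DESeq2 called 1, Trdc, as lower. The background was as low, with 0.0174% of 17258 genes called higher and 0% lower by edgeR, and 0.336% higher and 0.956% lower by DESeq2. The medians were -0.08 over the members and -0.01 over all genes. Trdc had 0.616, 0.782 and 0.824 CPM in treated d10 tumors, below every untreated d10 tumor (log2 fold change -1.09, SE 0.30, adjusted p = 0.23 in edgeR). Trac had 35.2, 32.7 and 33.0 CPM, also below every untreated d10 tumor (-0.35, SE 0.11, adjusted p = 0.27), and Trbc2 25.3, 22.2 and 24.7 CPM (-0.46, SE 0.14, adjusted p = 0.26). A p that misses the threshold does not show that the treatments gave equal levels.

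The difference between the treatment effects on d14 and d10 was tested as an interaction. Of 62 members tested, 7 had a higher effect on d14 and 0 a lower one, against 9.67% of 18574 genes with a higher and 2.15% with a lower effect, so the share of members was near the background. DESeq2 called 10 members higher and 0 lower, against 10.8% and 2.65% of genes. The medians were 1.01 over the members and -0.02 over all genes. The 7 members were Trac (1.27, SE 0.28, adjusted p = 0.0085), Trbc2 (1.16, SE 0.26, adjusted p = 0.0095), Tcrg-C1 (3.06, SE 0.69, adjusted p = 0.01), Tcrg-C2 (1.43, SE 0.34, adjusted p = 0.013), Trgv2 (1.73, SE 0.43, adjusted p = 0.015), Trdc (2.36, SE 0.40, adjusted p = 0.0038) and Trbv3 (2.82, SE 0.89, adjusted p = 0.042). Of these 7, 6 are constant genes or Trgv2, and Trbv3 falls outside the rule for named genes and was named after its values were seen. Tcrg-C4 gave 1.41 (SE 0.58, adjusted p = 0.11) and passed without d10 replicate 4 (1.63). Trac and Trbc2 fell under the fold threshold without untreated d14 replicate 2, at 0.99 and 0.92, and Trgv2 lost its call without treated d14 replicate 2.

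Markers of other cells moved with some of these results, and their part was not tested. The summed level of 5 B cell markers ran from 41.9 to 168.8 CPM in untreated d10 tumors and from 31.0 to 35.3 in treated d10 tumors, so it lay lower in the treated group, as Trdc did, while none of the 5 genes passed the test there. In the interaction 4 of the 5 passed, all higher (median log2 value 4.11). The fifth, Pax5, went the other way in the interaction, at -0.504, and gave 0.0185 for anti CTLA-4 on d10. Pax5 had a mean of 28.36 CPM in treated and 27.95 in untreated d10 tumors. It thus made up most of the treated d10 sum, and the lower sum came from the other 4 genes. The summed level of 6 lymph node markers was 15.5 to 107.3 CPM in untreated and 6.83 to 11.2 in treated d10 tumors. That of 7 mesothelioma cell markers was 2751 to 2855 CPM in untreated and 1824 to 2060 in treated d14 tumors, with abundant keratins lower by less than the fold threshold (Krt19 at -0.77, adjusted p = 0.0049, and Krt18 at -0.46, adjusted p = 0.0075) and 2 of the 7 genes passing as higher. The 5 thymocyte markers summed to 5.3 to 11.4 CPM in untreated and 16.7 to 27.8 in treated d14 tumors. The thymocyte sum came mostly from Cd1d1, with means of 8.12 and 21.2 CPM (log2 fold change 1.45, adjusted p = 0.012). Dntt, at means of 0.108 and 0.222 CPM, did not pass (adjusted p = 0.14). The lymph node, mesothelioma cell and thymocyte sums did not overlap between the groups given. The lymph node sum came mostly from Cxcl13, with means of 35.3 CPM in untreated and 7.55 in treated d10 tumors. Of its 4 genes tested there, 0 passed. The summed level of 6 NK cell markers was 13.4 to 15.6 CPM on d6, 13.7 to 19.4 on d10 and 5.63 to 10.3 on untreated d14. In treated tumors it was 12.9 to 18.3 on d10 and 11.9 to 14.7 on d14. It was lowest where Trdc, Tcrg-C1 and Tcrg-C4 were lowest. On treated d10, however, Trdc and Tcrg-C1 had lower means (0.741 and 0.226 CPM) than on treated d14 (0.911 and 0.411), and Tcrg-C4 a higher one (1.35 against 0.955). Of the 6 markers, 2 stood at no more than 3 reads per library in every group. The 4 tested went both ways between untreated d6 and d10, and none passed. Ncr1 gave -0.63, with means of 6.71 and 4.34 CPM. Eomes gave 0.77, with means of 4.69 and 8.06 CPM, Klrb1c 0.53 and Klri2 0.34. From d6 to untreated d14, Ncr1 (-2.22) and Klrb1c (-1.27) passed as lower. Rag1 and Rag2, the genes that cut receptor DNA in the thymus, stood at no more than 3 reads per library in every group. The summed level of 9 gamma delta T cell markers was 105.9 to 149 CPM over the 5 groups and came mostly from Maf, a transcription factor of several immune cell types, with group means of 101.4 to 117.5 CPM. Of the 6 markers tested on d14, Il23r, a cytokine receptor subunit, rose with treatment (log2 fold change 2.50, SE 0.31, adjusted p = 0.0047), and it also passed in the interaction (2.54, SE 0.67, adjusted p = 0.02), at no more than 0.842 CPM in any library.

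Rarely used segments with a known role had few reads. Trav1 had 30 reads in 11 libraries, 15 of them in treated d14 replicate 2. Traj18 had 13, 15 and 7 reads in the treated d14 tumors and at most 7 in any other. These are raw reads, not adjusted for depth. The treated d14 libraries held 85449173 to 96759833 counts, and those of d6 46371577 to 52814004. Among V gamma genes besides Trgv2, Tcrg-V4 had 46 reads (9, 4 and 5 on d6), Tcrg-V7 45, Tcrg-V1 43, Tcrg-V3 29 and Tcrg-V6 27, and Tcrg-V5, with 2 reads, was not a member. Of the delta V genes, Trdv4 had 111 reads and Trdv1 50. None of these reached the counts needed for a test between d6 and d10, and at this depth a change in them was not detectable.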

How the data were processed

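The authors sequenced paired-end 75 or 100 base libraries (KAPA RNA HyperPrep) on NextSeq500 or NovaSeq6000 instruments, aligned them to GRCm38/mm10 with TopHat2 (2.0.14), kept uniquely mapped reads and counted them per Gencode vM21 gene with HTSeq, and they deposited these raw counts. The strand setting of the counting is not given in the sources used here. For their own analysis the authors removed unexpressed genes and genes with a significant batch effect between sequencing projects. Here no gene was removed for batch and no batch term was fitted. Which library belonged to which project is not given in the sources used here, and its part in the results was not tested. Counts of the groups compared were fitted with edgeR 4.0.16 (filterByExpr, TMM, quasi-likelihood test, Benjamini-Hochberg adjustment over all genes tested) in R 4.3.3, and a gene was called at an adjusted p under 0.05 and an absolute log2 fold change over 1. DESeq2 1.42.0 was an alternative. The script was tested on simulated counts. Levels are CPM with TMM over the 17 libraries. V spread is the mean over 100 random thinnings. The members and gene lists were chosen with earlier results of these data known.

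Genes named were every constant gene, V and J segments of receptors with fixed use, for each comparison the 3 V genes called with the largest change in each direction at a mean of at least 0.5 CPM, V genes leading in a tumor, the CD3, zeta and coreceptor genes, and members near the count threshold. Libraries with the same replicate number did not deviate together (correlations of -0.27 to 0.12), so the numbers did not pair the tumors. The 22 pairs of libraries of 1 group all differed by more than counting noise. Groups were taken from the sample titles, every library was used, and alternatives were other normalizations, filters, fits and left-out libraries.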

Additional observations from a re-analysis of the deposited data

Results flagged for a closer look

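In the 5 untreated d10 tumors, 11 of 75 values tested had 1 tumor standing apart from the other 4 by Dixon's criterion, which chance meets in about 1 in 20 groups. The tumors concerned were replicate 4 or replicate 5 in 9 of the 11 values, and the values are not independent of each other.

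In replicate 4, Tcrg-C2 was at 8.332 CPM (others 4.29 to 5.44) and at 17.65 reads per 100 reads of Trac (others 11.3 to 12.3), Trgv2 was at 2.062 CPM (others 1.27 to 1.48) and Trbv17 at 1.531 CPM (others 0.216 to 0.453). In replicate 5, V alpha reads per 100 Trac reads were 20.64 (others 9.86 to 12.1), Trav8d-2 was at 1.082 CPM (others 0.0171 to 0.0937) and at 11.88% of V alpha reads (others 0.441 to 1.82), Trav14d-3-dv8 was at 1.051 CPM (others 0.0341 to 0.250), and Cd8b1 was at 808.9 reads per 100 reads of Cd4 (others 544 to 575). In replicate 1, Trav1 held 1.322% of V alpha reads (others 0.212 to 0.509), from 3 reads. In replicate 2, Tcrg-V3 was at 0.09365 CPM (others 0 to 0.0190), from 6 reads.

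In edgeR's interaction test, 7 of 62 members tested had a higher effect of anti CTLA-4 on d14 than on d10. The share over all 18574 genes tested was 9.67%, so that of the members was near the background. On the log2 scale the d14 effect minus the d10 effect was 3.06 for Tcrg-C1, 2.82 for Trbv3, 2.36 for Trdc, 1.73 for Trgv2, 1.43 for Tcrg-C2, 1.27 for Trac and 1.16 for Trbc2.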

How the results depend on the processing

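Of the values of single named genes under settings other than a left-out library, 458 kept their direction and side of the threshold, 17 lost and 5 gained a call, and 5 changed sign. The number of members called moved by over 1.5 times in these cases. With at least 10 counts in every library it was 9 for d10 against d6, 4 for d14 against d6 and 8 for anti CTLA-4 on d14, where fewer members were tested. With all 5 groups in 1 fit it was 32 for d10 against d6, 14 for d14 against d10, 13 for d14 against d6 and 11 for anti CTLA-4 on d14. Without a low count filter it was 24 for d14 against d6. With DESeq2 it was 11 for d14 against d10 and 1 for anti CTLA-4 on d10. With d10 replicates 4 and 5 alone it was 26 for d10 against d6, 11 for d14 against d10 and 11 for the interaction, and with replicates 1 to 3 alone 1 for anti CTLA-4 on d10. The cause was not tested. With single libraries left out the count ran from 10 to 17 for d10 against d6, 2 to 8 for d14 against d10, 6 to 17 for d14 against d6, 7 to 17 for anti CTLA-4 on d14, 0 to 0 on d10, and 5 to 9 for the interaction.

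With the replicate number as a block, which did not pair the tumors, the count was 12 for anti CTLA-4 on d14 and 3 on d10, and Tcrg-C4 on d10 turned to -0.25. The block left the counts of the other 4 comparisons within 1.5 times. It ended the calls of Trbv2 and Trbv14 for d10 against d6, Tcrg-C1 for d14 against d10, and Trgv2 and Trav3-3 for anti CTLA-4 on d14, and brought Trac on d14 and Tcrg-C4 in the interaction past the threshold.

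Among named genes, values near 0 changed sign: Tcrg-C1 for d10 against d6 to 0.0577 and Trbc1 for anti CTLA-4 on d10 to -0.0028 with d10 replicates 4 and 5 alone, Tcrg-C4 on d10 to -0.19 with replicates 1 to 3 alone, and Trbc2 for d14 against d6 to -0.0042 after thinning to the smallest library. With a library left out, Trbc2 for d14 against d6 ran from -0.115 to 0.255 and Tcrg-C4 for anti CTLA-4 on d10 from -0.164 to 0.446.

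Sums over a locus were moved by using V genes alone. For d10 against d6 the log2 ratio became 2.28 for alpha, 2.23 for beta, 1.79 for gamma and 0.68 for delta (reversed), for d14 against d10 -0.56 for alpha and -1.22 for delta, for anti CTLA-4 on d14 1.69 for delta, and on d10 -0.0645 for alpha and 0.0615 for delta (reversed). With constant genes alone beta was at 1.29 for d10 against d6. All sums kept their direction with any library left out.

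The effective number of V alpha genes in the order d6, d10, d14, treated d10 and treated d14 was 15.1, 13.4, 12.4, 14.6 and 14.0 by the inverse Simpson index. Without thinning it was 23.0, 20.2, 25.3 and 24.1 in the last 4 of these groups, and over all annotated V genes 20.5 on d6 and 18.5 on d10. Without thinning, the untreated and treated d14 groups overlapped for beta. For beta the inverse Simpson index was 10.3, 8.54, 5.81, 7.47 and 7.53. The order of d6, d10 and d14 was the same by both indices, and without thinning d6 was no longer highest for alpha.

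Depth limited V alpha on d6, J, D and delta V genes, which were mostly too low to test.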
